A study of Mus musculus with 11 samples.

Results

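The genes described here are the 8 NCAM and contactin genes of the mouse, Ncam1, Ncam2 and Cntn1 to Cntn6, which were taken by name from a bulk count table of 48440 genes and from 2 single-cell RNA sequencing (scRNA-seq) matrices. All 8 were listed in each table. They were chosen by name and not by a cutoff on measured values, though with earlier results of these data known. The bulk table held neural progenitor cells (NPCs) taken around the lateral ventricles of E14.5 mice and grown with EGF and bFGF, with 3 wild-type (WT) cultures and 3 cultures of the Syncrip conditional knockout (cKO). The scRNA-seq libraries held dorsal telencephalon of 1 WT and 1 cKO embryo of the same age, carried by the same mother. According to the study's methods, loxP sites flank part of Syncrip, which encodes an RNA-binding protein, and Cre removes that part, for the dorsal neocortex under Emx1, a gene of dorsal progenitors. The mice were C57BL/6. The labels name neither the Cre driver nor the genotype of the WT animals, and whether the cultures came from separate embryos is not given, so p-values measure the spread between cultures only.

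NCAM1 and NCAM2 are cell adhesion molecules with immunoglobulin and fibronectin type III domains that bind their own kind on neighbouring cells. NCAM1 carries most of the polysialic acid of the developing brain. Contactins share the same kinds of domains but are tied to the membrane by a lipid (GPI) anchor, and they signal through partners in the same or the facing membrane, such as the L1 family, the contactin-associated proteins, receptor phosphatases and the APP family. In the embryonic cortex, apical progenitors (APs) at the ventricle give rise to intermediate progenitors (IPs), which give rise to neurons that migrate outward, and these adhesion molecules are known for roles in migration, axon growth and synapse formation.

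The genes differ widely in size. In the mm10 positions of the count table, Cntn2 spans 33.8 kb on chromosome 1 (132509427 to 132543256), of which 27.5% is exonic. Cntn5 spans 1243.9 kb on chromosome 9 (9660891 to 10904775), with 0.36% exonic, and Cntn4 spans 1021.7 kb on chromosome 6 (105677660 to 106699310). Cntn3 (102162655 to 102573101) and Cntn6 (104492790 to 104863406) lie on the same chromosome as Cntn4. Ncam1 lies on chromosome 9 from 49502136 to 49798925, Ncam2 on chromosome 16 from 81200697 to 81624285, and Cntn1 on chromosome 15 from 92051165 to 92341967. The table gave the whole span as the length of every gene, and all 10748 genes that lie inside another gene had no count in any culture, against 40.4% of the others. Ncam1 shares 15% of its span with an overlapping gene on the opposite strand and Cntn3 shares 17.9%, while the other 6 share 0.1% or less.

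Syncrip itself did not mark the genotype in either assay. The WT cultures had 77.9, 79.8 and 79.9 counts in 1000000 (CPM), and the cKO cultures had 90.3, 88.7 and 81.5 CPM (log2 fold change 0.13, standard error 0.08, edgeR quasi-likelihood test, adjusted p = 0.18). In APs it was at 315 CPM in the WT and 324 CPM in the cKO embryo. Counts over the whole gene and UMIs read at the 3′ end do not measure the flanked part alone, so neither checks the deletion. The paper reports that RNA-seq tracks of neurospheres showed the flanked part deleted in cKO. It also reports a check of the knockout at the protein level. WT and cKO below stand for the labels. The bulk totals ran from 16962903 to 22708400 counts. After filtering, 8214 WT and 9560 cKO cells remained, with medians of 11705 and 11012.5 UMIs, and 22 cell barcodes occurred in both libraries. Xist gave 2 UMIs in the WT and 105339 in the cKO library, so the embryos were of different sex. In the cultures, Y-linked genes gave 8899, 5903 and 1 counts in WT and 9232, 0 and 0 in cKO, so the sexes were not balanced between genotypes. Cells were clustered without the 8 genes, and clusters were named as like the cell type whose markers they raised.

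In the NPC cultures, the 2 NCAM genes moved in opposite directions and the contactins split as well. Ncam2, Cntn1 and Cntn4 were higher in the cKO cultures, Ncam1, Cntn2 and Cntn5 were lower, and Cntn3 and Cntn6 did not pass the test. Of the 14432 genes tested, 19.7% were called higher and 19.8% lower, to be read beside the 3 of 8 members in each direction. The cKO and WT cultures did not overlap for 6 of the 8 genes, where 50.4% of all genes tested did not overlap. The median log2 fold change was -0.02 over the 8 genes and 0 over all genes tested.

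Ncam1 was measured at 440, 426 and 440 CPM in the WT cultures and at 363, 347 and 345 CPM in the cKO cultures. Each cKO culture lay below each WT culture, and the fold change was -0.31 on the log2 scale (standard error 0.07, adjusted p = 0.00493). Ncam2, the paralogue best known from olfactory axons, was measured at 147, 122 and 118 CPM for WT and at 206, 215 and 202 CPM in cKO. Its groups did not overlap, and it was 1.6-fold higher in cKO (log2 fold change 0.68, standard error 0.09, adjusted p = 4.54e-05). It was the member with the smallest adjusted p.

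The change of Cntn2 was the largest of the 8. Cntn2 encodes TAG-1, a contactin of young neurons and their axons. It was measured at 56.5, 72.1 and 122 CPM in the WT cultures and at 9.32, 10.0 and 8.49 CPM in the cKO cultures. The WT cultures were spread over a wide range, yet the lowest of them was far above every cKO culture, and the mean was 9.04-fold higher in WT (log2 fold change -3.18, standard error 0.30, adjusted p = 1.98e-04). Cntn5, which encodes NB-2, was low throughout, at 2.70, 2.67 and 3.39 CPM in the WT and 1.13, 1.34 and 1.25 CPM in cKO. It was lower in each cKO culture (log2 fold change -1.24, standard error 0.26, adjusted p = 0.002).

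Cntn1, whose product forms the paranodal junction with contactin-associated protein 1, was measured at 370, 321 and 303 CPM for WT and at 409, 414 and 431 CPM in cKO. All cKO cultures were above all WT cultures with a fold change of 0.34 on the log2 scale (standard error 0.09, adjusted p = 0.00755). Cntn4 was measured at 6.84, 7.35 and 4.95 CPM for WT and at 9.91, 10.1 and 8.10 CPM in cKO (log2 fold change 0.56, standard error 0.18, adjusted p = 0.0229). Its call was lost when WT culture 3 (adjusted p = 0.0847), cKO culture 1 (0.0782) or cKO culture 2 (0.0779) was left out. Over all genes, longer spans went with higher values in cKO, and with that trend removed Cntn1 (adjusted p = 0.104) and Cntn4 (0.173) no longer passed while Ncam2 did.

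Cntn3 and Cntn6, which is also known as NB-3, overlapped between genotypes. Cntn3 was measured at 28.3, 21.6 and 23.3 CPM in the WT and 28.2, 30 and 29.9 CPM in cKO (log2 fold change 0.27, standard error 0.11, adjusted p = 0.069). Cntn6 was measured at 23.6, 19.3 and 16.4 CPM in the WT and 15.2, 14.6 and 16.8 CPM in cKO (log2 fold change -0.35, standard error 0.14, adjusted p = 0.0577). Left out singly, WT culture 1 brought Cntn3 past the threshold (adjusted p = 0.00811) and WT culture 3 brought Cntn6 past it (0.0135), so for both the call rested on which cultures entered. The summed level of the 8 genes was 992 to 1075 CPM in the WT and 1041 to 1042 CPM in cKO.

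**Figure D1:**
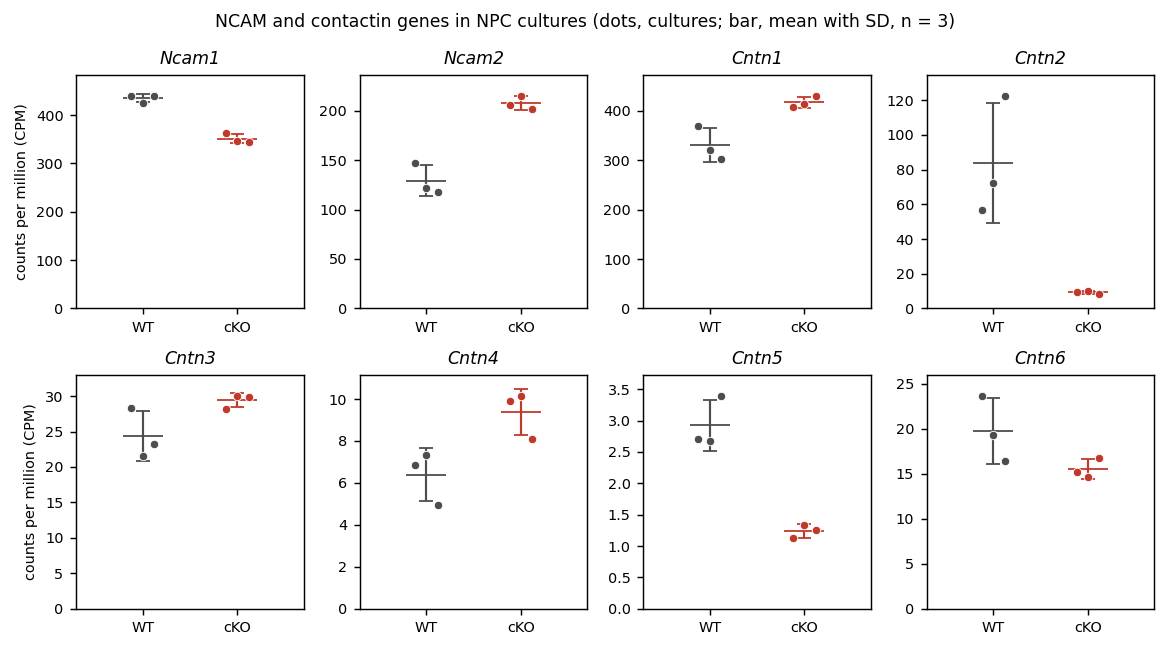
CPM (linear axes from 0) of the 8 genes in the 3 WT and 3 cKO NPC cultures, where each dot is a culture and the bar is the mean with its SD (n = 3). The cKO dots lie below all WT dots for Ncam1, Cntn2 and Cntn5 and above them for Ncam2, Cntn1 and Cntn4.

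Per kilobase of exon (RPKM), Ncam1 was at 50.2 ± 0.943 (SD, n = 3) and Cntn1 at 35.1 ± 3.67 in the WT cultures, followed by Ncam2 (11.4 ± 1.39) and Cntn2 (9.0 ± 3.70), which overlapped. Cntn3 (3.62 ± 0.522) and Cntn6 (3.04 ± 0.562) did not differ beyond their spread, nor did Cntn4 (0.752 ± 0.149) and Cntn5 (0.645 ± 0.0896), which were lowest. In the cKO cultures the order of the first 2 genes turned, with Cntn1 at 44.3 ± 1.21 RPKM and Ncam1 at 40.6 ± 1.145 RPKM. Cntn2 was then at 0.997 ± 0.0825 RPKM, which overlapped with Cntn4 (1.105 ± 0.131). Where intronic reads were counted, these values overstate genes with long introns. Divided by the whole span instead, Cntn2 was the highest of the 8 in WT, at 2.47 CPM per kilobase, and Ncam1 was next at 1.47.

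Marker genes of cell types that such cultures can hold were called as well, to be read beside the 19.7% of all genes called higher and 19.8% called lower. Of 11 neuronal markers tested, 7 were lower in cKO and 0 higher, though their summed level overlapped (2374 to 2685 CPM in WT, 2409 to 2521 CPM in cKO). Stmn2, a tubulin regulator of growing neurites, was at 13.2 to 16.4 CPM in WT and 0.117 to 0.193 CPM in cKO (log2 fold change -6.56, adjusted p = 8.22e-10), while Dcx, abundant in young neurons, was only slightly lower (-0.30, adjusted p = 0.0124). Of 9 astrocyte markers, 8 were lower, with a sum of 13000 to 15880 CPM in the WT and 7910 to 8425 CPM in cKO. Oligodendrocyte lineage markers split into 2 higher and 5 lower of 10, GABAergic markers into 0 and 3 of 6, and neural progenitor markers into 3 and 3 of 7. Tubb3, Gfap and Sox2, which each lie inside another gene of the table, were at 0 in every culture. The part of these markers in the values of Ncam1, Cntn2 and Cntn5 was not tested, and in bulk RNA fewer cells of a type and less RNA per cell cannot be told apart.

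Genes that bind, modify or cut the 8 proteins were read from a list of 35, of which 30 were tested. In the cKO cultures 13 of them were lower, 6 were higher and 11 did not pass, with a median log2 fold change of -0.07. Over all genes 19.7% were higher and 19.8% lower, so the share of higher partners was near the background. The L1 family, which contactins bind in the same membrane, gave 3 lower genes of 4. L1cam was measured at 19.95, 17.8 and 31.2 CPM in WT against 2.89, 2.80 and 2.56 CPM in cKO (log2 fold change -3.06, standard error 0.21, adjusted p = 1.73e-07), the smallest adjusted p of the list. Chl1 (log2 fold change -1.23) and Nfasc (-0.72) were lower as well, and Nrcam was not called (-0.11, adjusted p = 0.259).

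Among the contactin-associated proteins, Cntnap2 (log2 fold change -1.39) and Cntnap4 (-1.67) were lower in cKO, Cntnap5b was higher (0.76), and Cntnap1, the partner of Cntn1, was not called (0.08, adjusted p = 0.681). Of the 2 enzymes that add polysialic acid to NCAM1, St8sia2 fell from 14.7, 15.3 and 25.4 CPM to 3.24, 3.96 and 2.65 CPM (log2 fold change -2.50, adjusted p = 2.01e-06), while St8sia4 was not called (-0.35, adjusted p = 0.0817). Receptor phosphatases that bind contactins split, with Ptprz1 (log2 fold change 0.42) and Ptprg (0.63), the partner of several contactins, higher and Ptpra (-0.33) lower. App (log2 fold change -0.80) and Aplp1 (-0.82) were lower, and Aplp2 was not called (0, adjusted p = 0.98). The matrix proteins Agrn (0.66) and Ncan (0.36) and the receptor Fgfr1 (0.25), which NCAM1 engages, were higher, whereas the signaling partners Gap43 (-0.36) and Sptbn1 (-0.46) and the proteases Adam17 (-0.28) and Bace1 (-0.39) were lower.

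In the embryos, each member had its own pattern over the cell classes, and the class with the highest level among the 5 main ones was the same in the WT and the cKO embryo for all 8. These were the immature neurons for Cntn1 and Cntn2, cells of the ganglionic eminence (GE) for Ncam1, Cntn4 and Cntn5, and APs for Ncam2, Cntn3 and Cntn6. Levels are UMIs in 1000000 summed UMIs (CPM) with exact Poisson 95% intervals, which cover counting error only. With 1 embryo per genotype there is no test, and classes were taken as apart only where their intervals did not overlap in both embryos.

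Ncam1 was found in every neural class. It was lower in IPs (237 CPM in WT, 240 in cKO) than in APs (406 and 391 CPM), and then reached 352 and 413 CPM in migrating neurons, 867 and 856 CPM in immature neurons and 1074 and 1080 CPM in GE cells. GE cells and immature neurons were apart from each other and from pericytes (610 and 648 CPM), which in turn overlapped with Cajal-Retzius (CR) cells (594 and 532 CPM). APs and migrating neurons were not apart. In red blood cells, which should lack the gene, 45 and 57 CPM were counted.

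Ncam2 was highest in APs, at 142 CPM (135 to 148) in the WT and 197 CPM (190 to 203) in the cKO embryo, where CR cells overlapped with them in WT (120 CPM) and lay lower in cKO (141 CPM). In IPs it was at 21.7 and 24.4 CPM, which is 0.153 of the AP level in the WT and 0.124 in the cKO embryo. In migrating neurons it was at 16.7 and 30.6 CPM, and in immature neurons it was back at 77.6 and 85.6 CPM. The 2 NCAM genes thus had their lowest level within the lineage in IPs or migrating neurons, but Ncam1 was higher in immature neurons than in APs (2.14-fold in WT, 2.19-fold in cKO) and Ncam2 was lower (0.547 and 0.435 of the AP level).

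Among the cortical classes, Cntn2 and Cntn1 were highest in the immature neurons. Cntn2 was at 272 and 293 CPM in migrating neurons and at 472 and 476 CPM in immature neurons, against 29.0 and 36.9 CPM in APs and 60.4 and 68.3 CPM in IPs. In IPs, 63.6% and 59.4% of its UMIs lay in a cluster of which 86.5% of cells were called doublets, and without that cluster the IP level was 25.0 and 31.2 CPM. With all called doublets removed it was 15.3 and 17.7 CPM in APs and 24.8 and 35.5 CPM in IPs. CR cells, at 257 and 239 CPM, were not apart from migrating neurons. Cntn1 came later, with 3.06 and 10.3 CPM in migrating neurons and 63.1 and 49.9 CPM in immature neurons, a step of 20.6-fold in the WT and 4.84-fold in the cKO embryo. Of the cKO migrating neuron UMIs, 81.3% lay in 1 cluster led by Tafa1 and Tfap2d, and without it the migrating neurons were at 2.38 and 2.41 CPM. GE cells followed at 49.4 and 33.6 CPM, and in APs Cntn1 was at 4.41 and 3.96 CPM.

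Cntn3 and Cntn6 shared the AP maximum of Ncam2. Cntn3 was at 21.7 and 23.9 CPM in APs, 2.66 and 3.17 CPM in IPs, 2.80 and 2.47 CPM in migrating neurons and 11.4 and 13.2 CPM in immature neurons. CR cells were at 36.5 CPM in the WT but 13.6 CPM in the cKO embryo, from 32 and 17 UMIs. Cntn6 was rare, with 7.97 and 7.80 CPM in APs (103 and 148 UMIs) and at most 1.38 CPM in IPs, migrating and immature neurons. Of the few Cntn6 UMIs in immature neurons, 28 of 31 in WT and 24 of 29 in cKO lay in 1 cluster, led by Hs3st4 and Hs3st3b1, but 1 WT cell alone held 19 of the 31.

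Cntn4 was at 13.2 and 14.3 CPM in GE cells, at 5.22 and 9.89 CPM in IPs and at 0.906 and 1.84 CPM in migrating neurons. CR cells, with 21.7 and 37.5 CPM from 19 and 47 UMIs, overlapped with GE cells in the WT embryo and lay above them in the cKO embryo. Cntn5 was highest in CR cells (599 and 413 CPM), followed by GE cells (228 and 203 CPM). IPs (51.2 and 63.0 CPM), migrating neurons (28.1 and 72.8 CPM) and immature neurons (37.7 and 50.9 CPM) came next, in an order that differed between the embryos. In APs Cntn5 was at 6.35 and 20.1 CPM.

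**Figure D2:**
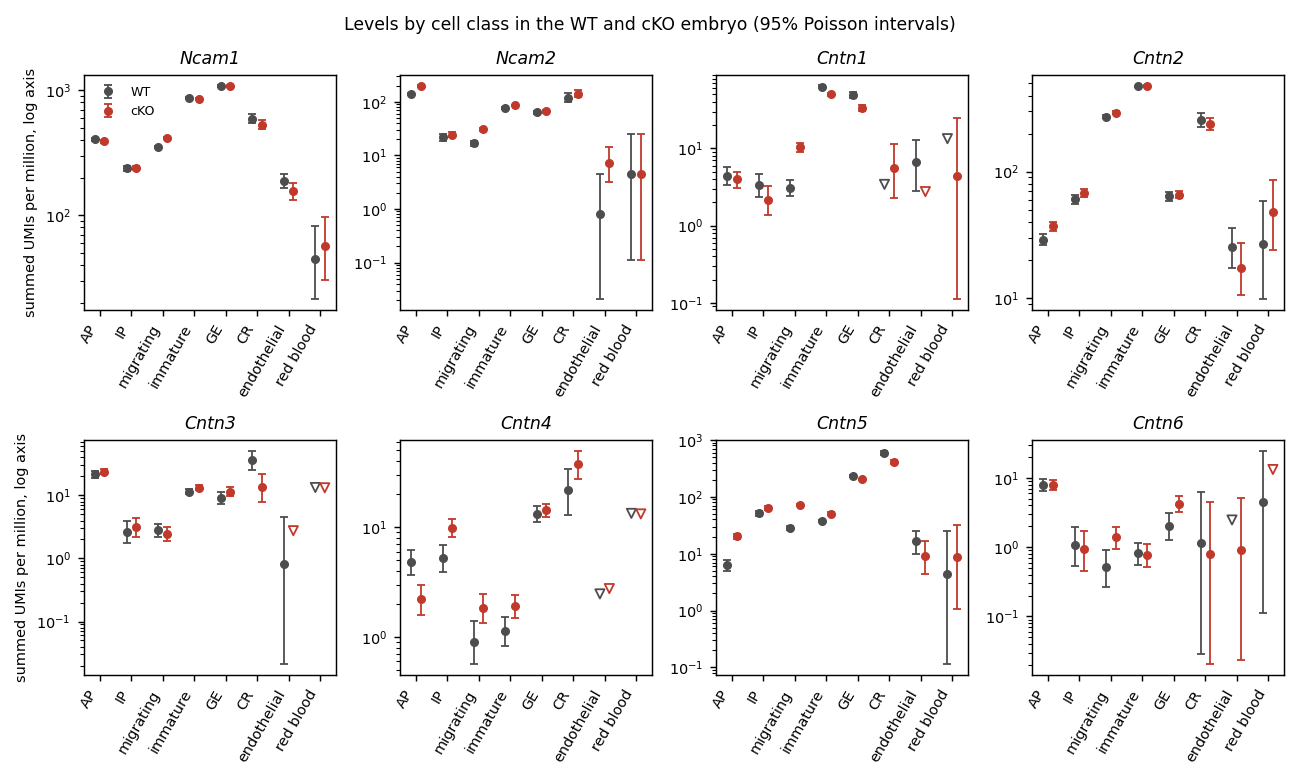
UMIs in 1000000 summed UMIs (log axes, each panel with its own range) of the 8 genes in 8 cell classes of the WT (grey) and cKO (red) embryo, with exact Poisson 95% intervals. Open triangles stand at the level of 3 UMIs where none was counted. Cntn2 is highest in immature neurons, Cntn5 in CR cells, and Ncam2 is far lower in IPs than in APs.

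The GE cells were not uniform for the contactins. A cluster like striatal neurons, led by Ebf1 and Isl1 and holding 110 WT and 107 cKO cells, held 2206 of the 2473 Cntn5 UMIs of WT GE cells (89.2%) and 2400 of 2900 in cKO (82.8%). Its Cntn5 level was 2166 CPM in the WT and 2470 CPM in cKO, while the cluster like cells derived from the medial ganglionic eminence (MGE), led by Lhx6, Npy and Sst, had 13.5 and 34.4 CPM. The MGE-derived cluster instead held most of the Cntn1 of the GE cells (68.6% in WT, 64.4% in cKO), at 88.5 and 53.8 CPM, and the highest Ncam1 (1505 and 1399 CPM). Ncam2 was highest in the striatal-like cluster (98.2 and 98.8 CPM) and in a cluster led by Nr3c2, Slit3 and Drd2 (109 and 114 CPM). That cluster raised 5 of 6 markers of cells derived from the caudal ganglionic eminence, but it was also led by Drd2 and Adora2a, known from striatal neurons, and is given no cell type name here. A cluster of 117 GE cells, of which 94.9% were called doublets, is left out of this comparison. Over all GE cells, the 10 richest held 49.5% of the Cntn5 UMIs in WT and 44.1% in cKO.

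Within the immature neurons, 1 cluster led by Hs3st4 and Hs3st3b1 held 80.8% of the Cntn5 UMIs in WT and 77.0% in cKO, at 193 and 199 CPM. The cluster led by Inhba and Cdh12 had 4.94 and 5.71 CPM of Cntn5 but the highest Cntn2, at 625 and 650 CPM. Among the migrating neurons, Cntn2 was at 440 and 510 CPM in the cluster led by Klhl35 and Nrp1 against 86.7 and 95.3 CPM in the cluster led by Neurod1 and Slc17a6, where Cntn5 was in turn higher (53.0 and 52.7 CPM, against 3.53 and 6.71 CPM). Cntn2 and Cntn5 were therefore most abundant in different clusters of the same class.

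Per cell, the members were seen in very different shares of the cells. With cells thinned to 5000 UMIs, 180 WT and 177 cKO APs being shallower and left out, Ncam1 was seen in 79.3% of the WT APs and 73.8% of those of the cKO (79.2% and 83.4% before thinning) and in 96.3% and 95.8% of immature neurons (99.0% in each before thinning). Cntn2 was seen in 81.4% and 80.7% of thinned immature neurons (92.4% and 91.5% before). In APs it was seen in 10.1% and 11.9% (20.2% and 23.5% before), against 6.67% and 11.8% of thinned red blood cells, of which 15 and 17 were deep enough. The Cntn2 level of APs, 29.0 and 36.9 CPM, also lay within the interval of red blood cells (26.7 and 48.4 CPM), and in endothelial cells Cntn2 was at 25.5 and 17.5 CPM. The AP value of Cntn2 was therefore not set apart from the level in red blood cells, which should lack the gene. With called doublets kept, it was above the endothelial level in the cKO embryo. Without them it was 15.3 CPM in WT, below the endothelial interval (17.3 to 36.2 CPM), and 17.7 CPM in cKO, within it (10.5 to 27.3 CPM). The red blood cell level rested on 6 and 11 UMIs, so its wide intervals cannot decide whether Cntn2 of APs is background. A thinned immature neuron showed 2.22 of the 8 genes on average in WT and 2.20 in cKO, and a thinned AP showed 1.4 and 1.5.

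Between the embryos, 3 of the 6 members with at least 200 UMIs in APs were higher in the cKO by a log2 ratio of at least 0.2, and 0 were lower by as much. Over the 10381 genes compared in APs, 12.7% were past the limit in the higher and 10.0% in the lower direction. The 3 were Cntn5, Ncam2 and Cntn2, and they differed in how they were carried. The ratios of APs, like all below, compare 2 embryos and have no replicate.

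Ncam2 was the best supported by counts, with 1832 UMIs in 961 WT and 3731 UMIs in 1317 cKO APs (log2 ratio 0.47, 0.39 to 0.55), and 2.4% of genes had a ratio as high or higher. It was higher in both large AP clusters, with 138 against 208 CPM in the cluster led by Tnc and Hes5 and 158 against 203 CPM in the cycling cluster led by Aurkb. In the remaining AP cluster, with 20 and 11 UMIs, it was lower (log2 ratio -1.22, -2.43 to -0.09). Thinned to equal depth, 34.6% of WT (31.2% to 38.0%) and 46.0% of cKO APs (43.0% to 48.9%) had a Ncam2 UMI (43.5% and 56.8% before thinning). With called doublets removed the log2 ratio was 0.54 (0.46 to 0.63).

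Cntn5 had the larger ratio but far fewer cells behind it. Its 82 WT UMIs lay in 35 APs and its 382 cKO UMIs in 107 APs (log2 ratio 1.67, 1.32 to 2.03), and 1 cKO cell alone held 133 of them. Called doublets, 52 of the 961 WT and 112 of the 1317 cKO APs, held 53.7% and 64.9% of these UMIs. Without doublets the levels were 3.26 and 8.30 CPM (log2 ratio 1.35, 0.82 to 1.91), and without the 3 richest cells of each embryo the ratio was 1.55. After thinning, 2.18% of WT (1.27% to 3.46%) and 3.6% of cKO APs (2.59% to 4.85%) had a Cntn5 UMI, and these intervals overlapped. Endothelial cells, which should lack the gene, had Cntn5 at 16.5 CPM (10.1 to 25.4) in the WT embryo and 9.19 CPM (4.41 to 16.9) in the other, and a Cntn5 UMI in 8.7% and 3.03% of thinned cells (20.8% and 3.03% before), at median depths of 39431 and 22067 UMIs against 12457 and 12647 in APs. The Cntn5 level of the WT APs was thus not above this endothelial background. With called doublets kept, that of the cKO APs was above the endothelial level. It was within the red blood cell interval (1.07 to 31.8 CPM), which rests on 2 UMIs and cannot decide. Without called doublets, at 8.30 CPM, the cKO APs lay within the endothelial interval of the same embryo. Ncam2 had 0.822 and 7.35 CPM in endothelial cells and a UMI in none of their 23 and 33 thinned cells. That allows a share of up to 14.8% and 10.6% (exact binomial interval). Other non-neural classes varied, with 0 and 61.0 CPM in fibroblasts (42.9 to 84.05 in cKO), 2.74 and 20.4 CPM in pericytes and 4.455 and 4.402 CPM in red blood cells. The part of such background in the AP ratio of Ncam2 was not tested.

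Cntn2 gave 375 and 699 UMIs in APs (log2 ratio 0.34, 0.16 to 0.53), of which 52.3% and 59.1% lay in called doublets. Without them its ratio was 0.21 (-0.07 to 0.48), it was 0.06 and 0.09 under the 2 other clustering resolutions, and it was 0.13 with each cell weighted equally. Markers of other cell types except IPs (1100 against 1070 CPM) were also higher in the cKO APs, with the summed list of migrating neurons at 519 against 635 CPM (5 of the 8 markers compared past 0.2), that of immature neurons at 1010 against 1120 CPM (4 of 9), that of GE cells at 151 against 193 CPM (5 of 6) and that of CR cells at 12.4 against 15.9 CPM (1 of 1). Their part in the values of Cntn2, Cntn5 and Ncam2 was not tested.

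The other AP ratios of well counted members were small. Ncam1 was at -0.05 (-0.11 to 0.00), and at -0.10 (-0.16 to -0.05) without doublets, and the intervals of Cntn3 (0.14, -0.08 to 0.36) and Cntn6 (-0.03, -0.40 to 0.35) included 0. Cntn4, with 62 and 42 UMIs, was below the 200 UMI limit and lower in cKO (log2 ratio -1.12, -1.72 to -0.53). Cntn1 had 57 and 75 UMIs, of which 70.2% and 68.0% lay in called doublets (log2 ratio -0.16, -0.67 to 0.37).

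**Figure D3:**
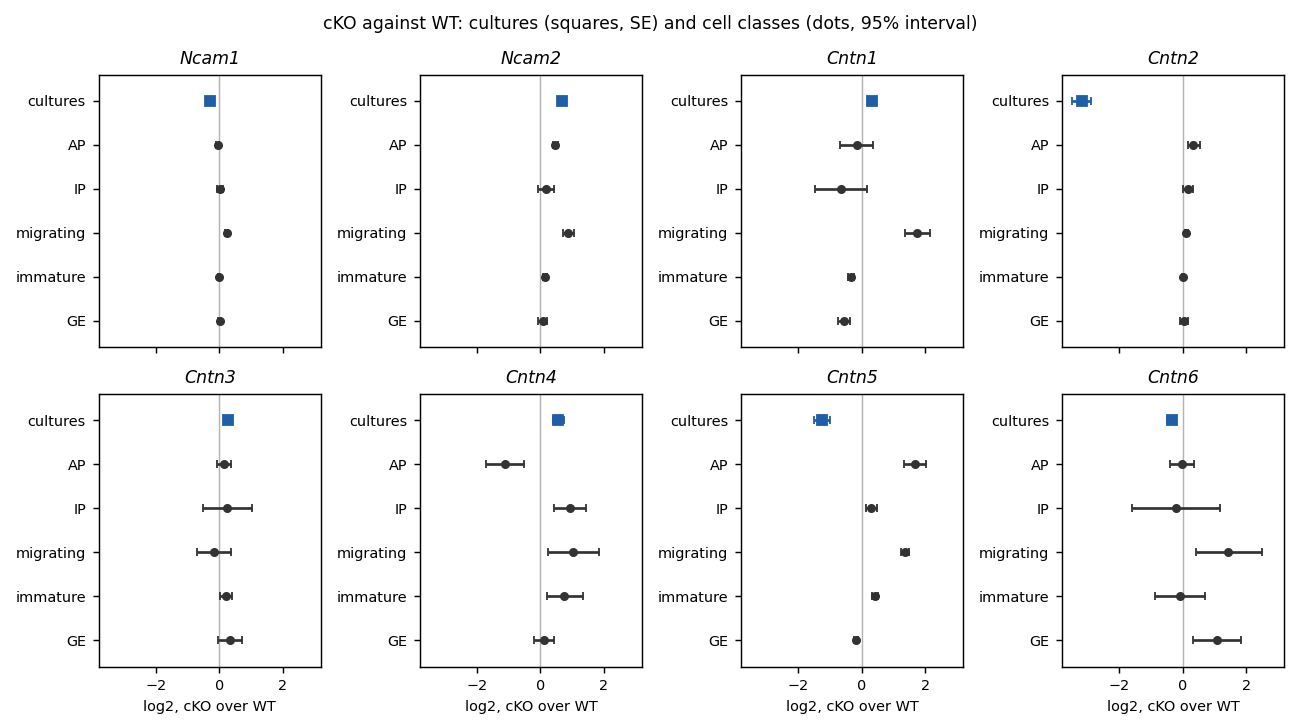
Log2 of cKO over WT for the 8 genes in the NPC cultures (squares with the standard error, 3 against 3 cultures) and in 5 cell classes of the embryos (dots with exact 95% counting intervals, 1 against 1 embryo). Cntn2 and Cntn5 lie left of 0 in the cultures and right of 0 in APs, and Cntn4 the reverse.

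In IPs, 1 of the 4 members compared was higher past the limit and 0 were lower, where 11.6% of 9140 genes were higher and 9.65% lower. This was Cntn5, at 51.2 and 63.0 CPM (log2 ratio 0.30, 0.13 to 0.47). The ratio was 0.24 (0.07 to 0.42) without a cluster of which 86.5% of cells were called doublets, and 0.21 (0.03 to 0.38) without all called doublets. In that cluster it was 0.94 (0.31 to 1.60), and in the cluster led by Neurod4 and Kif26b 0.45 (0.24 to 0.65). It was below 0 in the clusters led by Hist1h2af and Clspn (-0.46, -0.87 to -0.06) and by Ube2c and Cdc20 (-0.68, -1.52 to 0.12). Cntn4 was at 53 and 106 UMIs (0.92, 0.43 to 1.43) and below the UMI limit. Cntn2 was below the limit, at 0.18 (0.02 to 0.33). It was past the limit without called doublets (0.52, 0.27 to 0.77) and without the cluster of mostly called doublets (0.32, 0.06 to 0.58). Ncam1 (0.02, -0.06 to 0.10) and Ncam2 (0.17, -0.09 to 0.44) had intervals that included 0.

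In migrating neurons, 4 of the 5 members compared were higher in the cKO embryo and 0 were lower, where 12.7% of 10433 genes were higher and 9.56% lower. Cntn1 went from 3.06 to 10.3 CPM (log2 ratio 1.75, 1.36 to 2.15), Cntn5 from 28.1 to 72.8 CPM (1.37, 1.24 to 1.5), Ncam2 from 16.7 to 30.6 CPM (0.88, 0.70 to 1.06) and Ncam1 from 352 to 413 CPM (0.23, 0.19 to 0.27). All 4 values rested on 1 cluster, led by Tafa1 and Tfap2d, that held 123 WT and 469 cKO cells. Cntn1 also passed the limit of 200 UMIs only through the cKO embryo, so its place in the count is no support. The cluster carried 1192 of the 1740 Cntn5 UMIs and 200 of the 246 Cntn1 UMIs of the cKO class. Of these 1740 Cntn5 UMIs, 1 cell alone held 229 and the 10 richest cells held 40.5%, which the counting intervals do not cover.

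Without that cluster the log2 ratio was 0.02 (-0.59 to 0.62) for Cntn1, 0.10 (-0.07 to 0.27) for Cntn5, 0.08 (-0.15 to 0.30) for Ncam2 and -0.03 (-0.07 to 0.02) for Ncam1. Cntn2, below the limit in the whole class (0.11, 0.06 to 0.16), was then at 0.18 (0.13 to 0.24). Inside the cluster Cntn5 was at 51.8 CPM in the WT and 250 CPM in cKO, Ncam2 at 33.0 and 86.7 CPM and Cntn1 at 14.3 and 41.9 CPM. The summed migrating neuron markers of the cluster were at 6060 CPM in the WT and 3940 CPM in cKO, so its WT and cKO cells were not alike in their markers either.

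**Figure D4:**
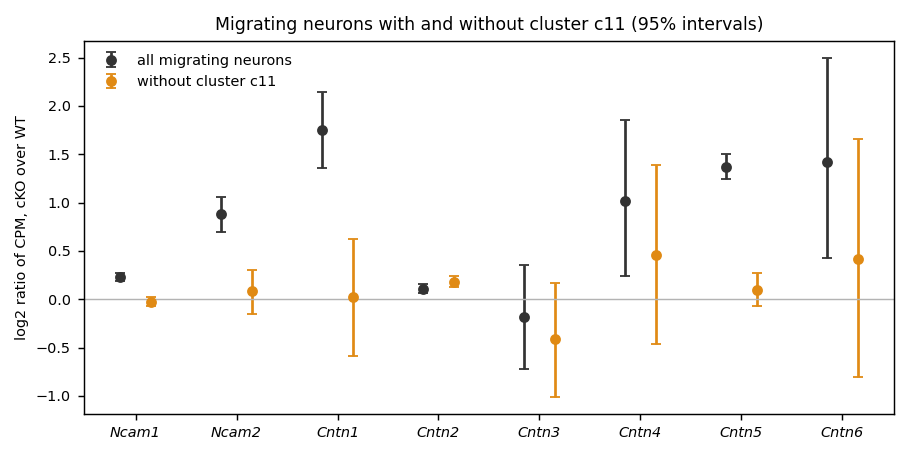
Log2 ratio of CPM, cKO over WT, of the 8 genes in migrating neurons, with all clusters (black) and without the cluster led by Tafa1 and Tfap2d, named c11 in the plot (orange), with exact 95% counting intervals. The ratios of Ncam1, Ncam2, Cntn1 and Cntn5 move to within 0.1 of 0 without it.

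In immature neurons, Cntn5 (log2 ratio 0.43, 0.33 to 0.53) and Cntn3 (0.21, 0.02 to 0.40) were higher past the limit and Cntn1 was lower (-0.34, -0.43 to -0.25), so 2 of 6 were higher and 1 of 6 lower, where 9.50% of 11431 genes were higher and 8.91% lower. Cntn1 was at 63.1 CPM in the WT and 49.9 CPM in cKO, and it was lower in each of the 3 clusters of the class (20.6 and 15.4 CPM, 99.0 and 69.0 CPM, 147.5 and 108 CPM). Of the Cntn5 UMIs of the class, 80.8% and 77.0% lay in the cluster led by Hs3st4 and Hs3st3b1, where the ratio was 0.05 (-0.06 to 0.16), and 418 of 2418 cells belonged to it in WT, 551 of 2503 in cKO. In the cluster led by Kctd8 and Crym the Cntn5 ratio was 0.90 (0.63 to 1.17). Of the Cntn5 UMIs of the class, 1 WT cell held 261 of 1431 and 1 cKO cell held 113 of 1921. Cntn3 turned to -0.13 and -0.01 under the other resolutions. Ncam2 was at 0.14 (0.07 to 0.21) over the class, but its clusters differed. It was lower in the cluster led by Inhba and Cdh12 (35.5 and 17.2 CPM, log2 ratio -1.04, -1.23 to -0.85). In the cluster led by Hs3st4 and Hs3st3b1 it was higher (0.58, 0.45 to 0.72), and in that led by Kctd8 and Crym it was at 0.04 (-0.07 to 0.14). Ncam1 (-0.02, -0.04 to 0.00) and Cntn2 (0.01, -0.02 to 0.04) had the most UMIs here, and their intervals lay within 0.04 of 0. Summed markers of GE cells were higher in these neurons too (31.7 against 47.0 CPM, 5 of 5 compared) and those of migrating neurons lower (2970 against 2610 CPM, 5 of 9), and their part was not tested.

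In GE cells, which mostly arise outside the region where Emx1-Cre acts, 1 of the 7 members compared was higher and 1 lower past the limit, where 10.7% of 9841 genes were higher and 7.92% lower. The lower one was again Cntn1, at 49.4 CPM in the WT and 33.6 CPM in cKO (log2 ratio -0.56, -0.74 to -0.38), with 99.5% of genes at a higher ratio or the same. In the MGE-derived cluster its ratio was -0.72 (-0.94 to -0.50), where summed AP markers were also higher (333 against 445 CPM) and CR markers lower (359 against 234 CPM), a part that was not tested. Cntn3 was higher (0.33, -0.04 to 0.70), with an interval that included 0. Cntn5 was at -0.17 (-0.25 to -0.10) over the class, although it was at 0.19 (0.11 to 0.27) in the striatal-like and 1.35 (0.91 to 1.80) in the MGE-derived cluster. Striatal-like cells were 110 of the 1195 GE cells in WT and 107 of 1644 in cKO. Syncrip was at 307 and 266 CPM in GE cells.

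Of the 35 partner genes, 8 of the 29 compared in APs were higher past the limit and 2 lower, with a median log2 ratio of 0.07, against -0.01 over all genes and shares of 12.7% higher and 10.0% lower. Summed markers of migrating neurons (519 against 635 CPM) and called doublets (52 and 112 cells) were also higher in the cKO APs, and their part was not tested. Cntnap2 (0.52, 0.33 to 0.72), Aplp1 (0.47), St8sia4 (0.45), Chl1 (0.36), Nfasc (0.33) and St8sia2 (0.32) were among the higher, and Cntnap5b (-1.28, -1.66 to -0.91) and Tnc (-0.54, -0.66 to -0.41) were the lower, of which Cntnap5b passed the limit of 200 UMIs only through the WT embryo. L1cam, Chl1, Nfasc, Cntnap2, Aplp1 and St8sia2, which were lower in the cKO cultures, thus had AP ratios above 0 (for L1cam 0.31, -0.04 to 0.68). So did Sptbn1 (0.27, 0.16 to 0.37) and Gap43 (0.17, 0.06 to 0.29), and Cntnap5b was higher in the cultures and lower in APs. Others kept their direction. App was lower in both (AP ratio -0.19, -0.25 to -0.13), and Ptprg (0.11, 0.03 to 0.19) and Agrn (0.17, 0.01 to 0.32) were higher in both. For the other partners called in the cultures, the AP interval included 0. In migrating neurons 9 of 29 were higher and 3 lower (12.7% and 9.56% of all genes), and in immature neurons 6 of 29 were higher and 4 lower (9.50% and 8.91%), among the latter Fgfr1 (-0.51) and Tnr (-0.42). IPs gave 7 higher and 3 lower of 26 (11.6% and 9.65%). GE cells gave 3 higher and 2 lower of 31, near the shares over all genes (10.7% and 7.92%).

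The genes with the pattern most like each member over 11 named classes of both embryos (22 points, which share libraries and depth) were found by Pearson's r of log2(CPM + 1). They were Bhlhe22 for Cntn2 (r = 0.956), Kifap3 for Ncam1 (0.922), Kif27 for Cntn3 (0.917), Dusp26 for Cntn5 (0.917), Ugt8a for Cntn4 (0.908), Tceal3 for Ncam2 (0.899), Usp44 for Cntn6 (0.891) and Slitrk3 for Cntn1 (0.89). Among the members themselves, Ncam2 and Cntn3 were the most alike (r = 0.87) and Cntn2 and Cntn6 the least (-0.14).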

How the data were processed

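The authors deposited raw counts per gene for the 6 cultures (HISAT2, mm10, per the labels and methods) and filtered 10x UMI count matrices of the 2 embryos (Cell Ranger 7.0.0, per the file headers). For the counting program and strandedness, the sources used here name nothing. LACE-seq samples were not analysed here. Exons and positions were matched to GENCODE (87.0% of genes).

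Cultures were compared by edgeR 4.0.16 (quasi-likelihood, TMM, Benjamini-Hochberg over 14432 genes, threshold 0.05). The test was checked on simulated data. Cells were kept from 200 genes upward and up to 10% mitochondrial UMIs, and clustered in Seurat 5.3.0 (2000 variable genes less the members, 30 components, resolution 0.8) and named from marker lists. Scrublet (scanpy) called 298 WT and 451 cKO doublets, which were kept in the main values. Summed UMIs were given exact Poisson intervals and ratios exact conditional 95% intervals, for sums of at least 20 UMIs. With 1 embryo per genotype no test was made. Intervals and floors (3 counts) cover counting error only.

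All 8 members are named, with partner genes called in the cultures and, of the genes whose pattern was most similar to a member's, the first. Partner genes not called in the cultures were chosen to be named after their values were seen. The members, gene lists and tests were chosen with earlier results of these data known. No per-sample column was left without a sample. Alternatives were other scalings, filters and tools, a replicate block, sex and gene span terms, left-out cultures, other resolutions, doublet removal, equal cell weights, thinning and other limits. Those without single clusters or the richest cells were chosen after seeing the data.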

Additional observations from a re-analysis of the deposited data

Results flagged for a closer look

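Cntn2, Cntn4 and Cntn5 had opposite directions in the cultures and in APs. Cntn2 was lower in every cKO culture and had an AP log2 ratio of 0.34, which was 0.21 (-0.07 to 0.48) without called doublets. Cntn5 was lower in every cKO culture and had an AP ratio of 1.67, its highest over the main classes. Cntn4 was higher in every cKO culture and had an AP ratio of -1.12 (62 and 42 UMIs), its lowest over the classes, against 1.02 in migrating neurons (21 and 44 UMIs). Without the cluster led by Tafa1 and Tfap2d the latter was 0.46 (-0.46 to 1.39). The culture call of Cntn4 was lost when WT culture 3, cKO culture 1 or cKO culture 2 was left out, and with the span trend removed. Other members had ratios of opposite sign in different classes of the embryos. Cntn1 was at 1.75 in migrating neurons (0.02 without the cluster led by Tafa1 and Tfap2d) and at -0.56 in GE cells, and Cntn5 was at -0.17 in GE cells. None of these differences between cultures and embryos or between classes was tested, since each embryo gave 1 library. The cultures also differ from the embryos in cell types, in growth factors and in reads counted along the gene rather than at the 3′ end, and the part of these was not tested. The Cntn2 and Cntn5 levels in APs lay within the intervals of red blood cells, which should lack both genes. Those intervals rested on 6 and 11 Cntn2 UMIs and on 1 and 2 Cntn5 UMIs, too few to tell the AP levels from that background.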

How the results depend on the processing

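With the gene span trend removed, 1 member was called higher in the cultures (Ncam2) against 3, and 4 were called lower. With each culture left out in turn, 2 to 4 members were higher and 3 to 4 lower. The replicate block in edgeR gave 4 higher and 4 lower, adding Cntn3 (adjusted p = 0.0392) and Cntn6 (0.0389). The deviations of same-numbered cultures from their group means had r = 0.26, -0.05 and 0.12. With 3 cultures per group these values cannot settle whether the numbers pair the cultures. In APs, a limit of 50 UMIs added 1 lower member (Cntn4), and a log2 ratio of at least 0.5 left 1 higher (Cntn5). Cntn3 in immature neurons turned to -0.13 and -0.01 at resolutions 0.4 and 1.2, Cntn2 in migrating neurons to -0.03 at 1.2, and Ncam1 in migrating neurons to -0.03 without the cluster led by Tafa1 and Tfap2d. The classes with the highest levels did not change under the other resolutions, doublet removal or equal weights (16 of 16 members and embryos). Members with under 200 UMIs in a class are limited by depth.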

Other observations

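CR cells, of which there were 63 in the WT and 111 in the cKO library, had lower Cntn5 in the cKO embryo (log2 ratio -0.54, -0.71 to -0.36). Their Ncam1 (-0.16, -0.33 to 0.01), Ncam2 (0.24, -0.12 to 0.60) and Cntn2 (-0.10, -0.36 to 0.15) had intervals that included 0. In fibroblasts, 0 Ncam2 UMIs were counted in 89 WT cells and 37 in 89 cKO cells. Cells left without a class, 653 WT and 794 cKO, most of them in a cluster with a median of 1184 UMIs, had Ncam2 at 75.0 and 131 CPM (0.80, 0.47 to 1.14) and Cntn5 at 21.7 and 51.8 CPM (1.26, 0.66 to 1.88). None of these values has a replicate.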
